A study of Mus musculus with 4 samples.

Results

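The genes described here rose at least 2-fold in the brain of tau+/+ mice 1 h after pentylenetetrazole (PTZ), outside the set of best-known early response genes. They were chosen from the 230 genes that the authors listed for a response to PTZ in tau+/+ and for a weaker one, or none, in tau-/-. The choice used 1 measured value, the ratio of FPKM in the tau+/+ PTZ library to FPKM in the tau+/+ vehicle library, which had to be at least 2. FPKM scales the count of sequenced fragments by transcript length and library size, so levels can be set side by side between genes as well as between libraries. Of the 230 genes, 85 (37%) met that ratio. Of these, 35 belong to 43 named genes that were set aside, among them Fos, Arc and Egr1, and the other 50 are the subject here.

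The libraries were made from brain RNA of C57Bl/6 mice 6 weeks of age, with 1 library for each of 4 groups. The groups were tau+/+ mice given vehicle, tau+/+ mice given 50 mg/kg PTZ, tau-/- mice given vehicle and tau-/- mice given 50 mg/kg PTZ. PTZ blocks inhibitory GABA receptors and provokes seizures. The tau-/- mice carry a green fluorescent protein cDNA knocked into exon 1 of Mapt, the gene of tau, in all cells. How many mice went into each library is not given in the sources used here, and the PTZ mice had been matched for seizure score. The labels name brain as the source but describe primary neurons too, and brain is taken as the source below. Mapt is not analysed here, so the genotype rests on the labels, and the labelled tissue was not checked against neuronal markers, since only the listed genes are used here.

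With 1 library per group no difference below has a replicate check, no test was made, and each value describes these libraries only. Where a gene is said to go from 1 level to another, the first is vehicle and the second PTZ. The methods give only a minimum depth for all libraries and the total of each cannot be read from FPKM, so no counting interval is attached to low values. A change counts as a rise or a fall past 1.5-fold, the threshold of the study. Because the tau+/+ response chose the genes and the tau-/- response shaped the authors' list, both are given as descriptions. The vehicle difference between genotypes shares the tau+/+ vehicle library with the choice of genes, and the PTZ difference shares the tau+/+ PTZ library. In bulk tissue, fewer cells of a type and less RNA per cell cannot be told apart.

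Strong firing of neurons lets calcium in and activates kinases that phosphorylate factors already bound at promoters, such as CREB at the cAMP response element (CRE) and serum response factor at the CArG box. Genes switched on this way without new protein synthesis are called early response genes. Beside transcription factors of the Fos and Egr families they encode feedback regulators that end the response, among them kinases acting on CREB coactivators, inhibitors of signaling, phosphatase subunits and proteins that destroy unstable mRNAs. Many of these mRNAs carry AU-rich elements in the 3′ untranslated region, which shorten their life.

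The promoters that hold the fullest matches to activity-linked motifs are shown first, because the genes behind them recur in the results. All are windows of RefSeq promoters on GRCm38.p6, read 5′ to 3′ on the strand of the gene. In the first 3, capitals mark TGACGTCA, the full CRE palindrome, which starts 12 bases before the annotated start of Ppp1r15a (chr7:45526239-45526320, minus strand), 121 bases before that of Arl5b (chr2:15055159-15055246, plus strand) and 51 bases before 1 of the 3 annotated starts of Nfkbid (chr7:30422315-30422402, plus strand).
Ppp1r15a: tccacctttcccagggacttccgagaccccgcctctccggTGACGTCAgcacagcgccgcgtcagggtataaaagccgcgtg
Arl5b: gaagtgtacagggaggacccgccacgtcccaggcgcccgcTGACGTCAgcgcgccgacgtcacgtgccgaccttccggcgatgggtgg
Nfkbid: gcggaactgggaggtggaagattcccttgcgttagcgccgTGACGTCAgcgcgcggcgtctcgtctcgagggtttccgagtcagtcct

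The Coq10b promoter (chr1:55052557-55052764, plus strand) held more copies of the CRE core than any other promoter of the 50 genes, with 4 copies of CGTCA in capitals, the reverse complement of TGACG. They begin 173, 72, 61 and 50 bases before the start.
Coq10b: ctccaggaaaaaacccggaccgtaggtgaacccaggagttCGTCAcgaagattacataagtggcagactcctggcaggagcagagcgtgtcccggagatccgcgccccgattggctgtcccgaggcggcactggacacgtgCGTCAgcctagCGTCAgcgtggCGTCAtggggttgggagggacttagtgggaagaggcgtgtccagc

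Gm129, now named Ciart, encodes a repressor of the circadian clock. Its promoter (chr3:95882227-95882384, minus strand) holds 3 copies of CACGTG, the E-box letters bound by clock factors, in capitals, which begin 116, 58 and 44 bases before the start.
Gm129: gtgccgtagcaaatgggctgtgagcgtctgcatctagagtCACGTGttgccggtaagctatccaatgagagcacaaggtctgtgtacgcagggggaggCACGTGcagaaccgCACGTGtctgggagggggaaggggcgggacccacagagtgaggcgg

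Zfp36 (chr7:28379237-28379326, minus strand) was the only gene, of the 35 whose promoter RefSeq gave, with a CArG box, in capitals, which begins 58 bases before the start. Csrnp1 (chr9:119982994-119983165, minus strand) was the only one with the AP-1 letters TGANTCA, here TGAGTCA at 102 and 14 bases before 1 of its annotated starts.
Zfp36: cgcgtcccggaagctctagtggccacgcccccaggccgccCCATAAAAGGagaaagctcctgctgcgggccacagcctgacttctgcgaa
Csrnp1: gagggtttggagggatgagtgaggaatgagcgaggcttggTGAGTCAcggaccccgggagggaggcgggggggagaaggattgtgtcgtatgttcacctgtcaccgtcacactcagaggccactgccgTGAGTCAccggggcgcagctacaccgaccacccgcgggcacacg

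All 50 genes were highest in tau+/+ PTZ, as were 174 of all 230 listed genes, and the choice of genes required a high value there. Their median log2 response in tau+/+, PTZ over vehicle, was 1.51, with a range from 1.01 to 2.59 that starts where the choice of genes sets it. In tau-/-, the median log2 response to PTZ over the vehicle of the same genotype was 0.05, with a range from −1.60 to 3.08. Of the 50 genes, 37 (74%) stayed within 1.5-fold of their vehicle in tau-/-, against 74.8% of all listed genes. Another 7 (14%) rose past 1.5-fold, against 8.7% of all 230 listed genes, and 6 (12%) fell past it, against 16.5% of all listed. Over all 230 listed genes the median log2 response in tau-/- was −0.10.

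After PTZ the level in tau-/- was a median of 44.2% of that in tau+/+, from 7.23% for Wdr86 to 82.2% for Morn5, and for 34 of the 50 genes it was under 50%. The median log2 difference between the PTZ libraries, tau-/- over tau+/+, was −1.18. Of the 50 genes, 47 were lower in tau-/- PTZ past 1.5-fold, against 60.4% of all listed genes, and 0 were higher, against 6.09%. This difference shares the tau+/+ PTZ library that had to be high, and nothing is read from it. As a description over the 50 genes, which share the same 4 libraries, Spearman's rho between the responses of the genotypes was 0.12 and Pearson's r was 0.19.

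**Figure D1:**
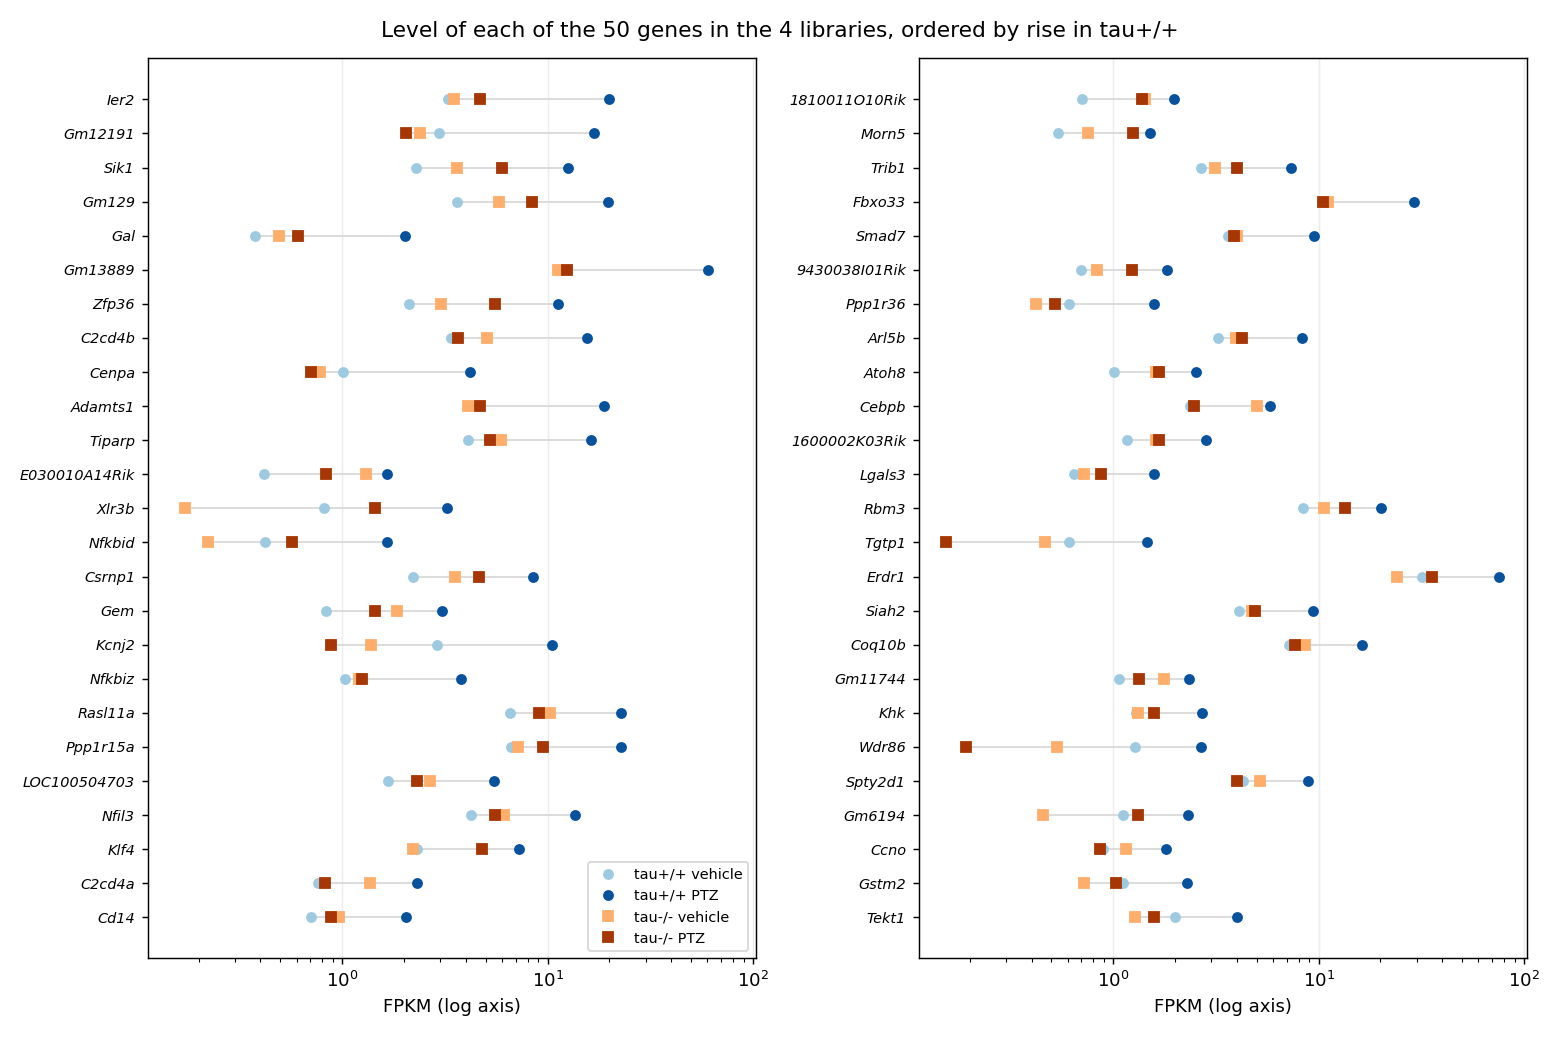
Level of each of the 50 genes in FPKM on a log axis, in the 4 libraries, ordered from the largest rise in tau+/+ to the smallest. The dark blue point, tau+/+ PTZ, is the rightmost for every gene, and Xlr3b, Wdr86 and Tgtp1 show the widest gaps to the left. The tau-/- PTZ square lies right of the tau-/- vehicle square for 28 genes and right of the tau+/+ vehicle circle for 39. It is the leftmost of the 4 points for 8 genes.

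**Figure D2:**
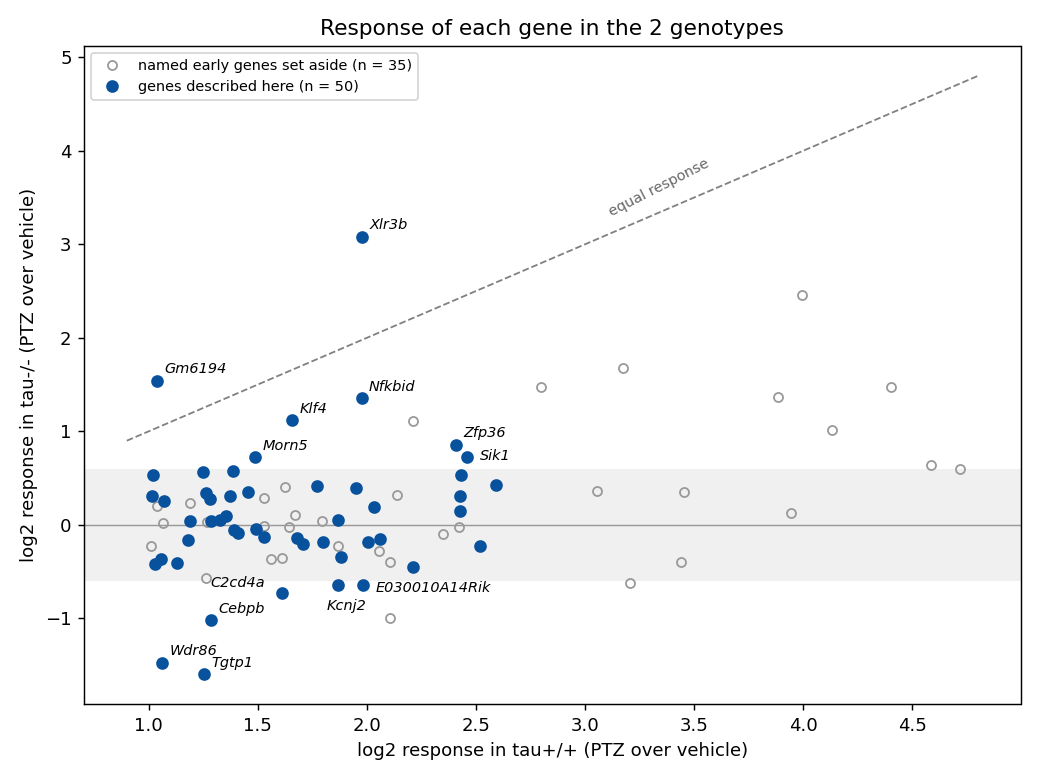
Log2 response to PTZ over vehicle in tau-/- (vertical axis) against tau+/+ (horizontal axis), 1 point per gene, filled for the 50 genes and open for the 35 early genes set aside. The grey band marks 1.5-fold in tau-/-, and of the 50 genes only Xlr3b and Gm6194 lie above the dashed line of equal responses.

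The first 9 genes encode regulators of transcription and chromatin, and in tau-/- 1 of them rose, 1 fell and 7 stayed within 1.5-fold. Over all listed genes these shares were 8.7%, 16.5% and 74.8%. Ier2, a nuclear immediate early protein, had the largest rise of the 50 genes in tau+/+. Its levels were 3.29 FPKM with vehicle and 19.8 FPKM with PTZ in tau+/+, and 3.51 FPKM and 4.71 FPKM in tau-/-. Only the tau+/+ PTZ library stood apart, and the log2 responses were 2.59 and 0.42. The gene lies on chromosome 8, from 84661331 to 84662852. Gm129 went from 3.63 FPKM to 19.6 FPKM in tau+/+ and from 5.79 FPKM to 8.37 FPKM in tau-/-. Both tau-/- libraries were thus above tau+/+ vehicle, and the log2 response of 2.43 in tau+/+ stood beside 0.53 in tau-/-.

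Klf4, a zinc finger transcription factor, was the member of this group that rose in tau-/-. It stood at 2.31 FPKM (vehicle) and 7.30 FPKM (PTZ) in tau+/+ and at 2.21 FPKM and 4.79 FPKM in tau-/-. The vehicle libraries were close to each other, so its log2 response of 1.12 in tau-/- changed little, to 1.05, when taken over tau+/+ vehicle. Cebpb, a leucine zipper factor of inflammatory genes, was the member that fell. It measured 2.37 FPKM with vehicle and 5.78 FPKM with PTZ in tau+/+, against 4.99 and 2.46 FPKM in tau-/-. Its level in tau-/- vehicle was 2.11-fold that in tau+/+ vehicle, and tau-/- PTZ was back at the tau+/+ vehicle level. The log2 response of −1.02 in tau-/- became 0.06 over tau+/+ vehicle.

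Cenpa, the histone H3 variant of centromeres, went from 1.00 FPKM to 4.19 FPKM in tau+/+ and from 0.783 FPKM to 0.705 FPKM in tau-/-. Its log2 response of 2.06 in tau+/+ thus had no counterpart in tau-/-, where the value was −0.15. The remaining members were Csrnp1, Nfil3, Atoh8 and Spty2d1, a nuclear activator, a circadian repressor, a basic helix-loop-helix factor and a histone chaperone. In tau+/+ their log2 values lay between 1.06 and 1.95, and in tau-/- between −0.37 and 0.40. Of the 9 genes, 7 were higher with vehicle in tau-/- than in tau+/+, a direction shared by 58.7% of all listed genes and set in part by the choice of genes.

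A group of 7 genes covers NF-κB signaling, innate immunity and mRNA decay, with the RNA-binding protein Rbm3 placed among them. Its median log2 responses were 1.53 (tau+/+) and 0.28 (tau-/-). Zfp36 encodes tristetraprolin, which binds AU-rich elements and speeds mRNA decay. Its levels were 2.12 FPKM with vehicle and 11.3 FPKM with PTZ in tau+/+, and 3.04 FPKM and 5.52 FPKM in tau-/-. It rose in both genotypes, by 5.32-fold in tau+/+ and 1.81-fold in tau-/-, and was 2.60-fold above tau+/+ vehicle in tau-/- PTZ. Nfkbid, a nuclear inhibitor of κB family protein, also rose in tau-/-, from 0.223 FPKM to 0.570 FPKM, while in tau+/+ it went from 0.422 FPKM to 1.66 FPKM. Because its tau-/- vehicle level was the lowest of the 4 libraries, the log2 response of 1.36 was only 0.43 over tau+/+ vehicle.

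Nfkbiz, of the same family as Nfkbid, went from 1.04 FPKM to 3.78 FPKM in tau+/+ and from 1.21 FPKM to 1.25 FPKM in tau-/-. These family members thus differed in tau-/-, with log2 responses of 0.05 for Nfkbiz and 1.36 for Nfkbid, both at low levels. Tgtp1, an interferon-induced GTPase, fell in tau-/-. It stood at 0.612 FPKM (vehicle) and 1.46 FPKM (PTZ) in tau+/+ and at 0.466 FPKM and 0.154 FPKM in tau-/-, and it has a near-identical neighbor, Tgtp2, so its counts are uncertain. Its log2 response of −1.60 in tau-/- was the largest fall of the 50 genes. Rbm3, a cold-induced RNA-binding protein, was the most abundant of the group. It measured 8.39 FPKM with vehicle and 20.1 FPKM with PTZ in tau+/+, against 10.6 and 13.4 FPKM in tau-/-, so its tau-/- PTZ level was 66.6% of that in tau+/+. Cd14, a co-receptor for bacterial lipopolysaccharide, and Lgals3, galectin-3, reached log2 values of 1.53 and 1.28 after PTZ in tau+/+, with −0.13 and 0.28 in tau-/-.

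Regulators acting through kinases, phosphatases, ubiquitin or ADP-ribose numbered 7, with median log2 responses of 1.46 (tau+/+) and 0.04 (tau-/-). With vehicle, all 7 were higher in tau-/- than in tau+/+, by up to 1.59-fold, a direction shared by 58.7% of all listed genes. Sik1 encodes salt-inducible kinase 1, which phosphorylates CREB coactivators and keeps them out of the nucleus. It went from 2.28 FPKM to 12.6 FPKM in tau+/+ and from 3.63 FPKM to 6.01 FPKM in tau-/-. Its rise of 1.66-fold in tau-/- was the only one of the group past the threshold, and tau-/- PTZ stood 2.63-fold above tau+/+ vehicle.

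Ppp1r15a encodes GADD34, which brings protein phosphatase 1 to the initiation factor eIF2α. It stood at 6.65 FPKM (vehicle) and 22.7 FPKM (PTZ) in tau+/+ and at 7.14 FPKM and 9.55 FPKM in tau-/-, which left it 1.34-fold above vehicle in tau-/-. Fbxo33, an F-box protein of ubiquitin ligases, was nearly level outside tau+/+ PTZ. Its level was 11.0 FPKM with vehicle and 29.1 FPKM with PTZ in tau+/+, and 11.1 FPKM and 10.5 FPKM in tau-/-. Tiparp, a mono-ADP-ribosyltransferase, gave log2 values of 2.01 (tau+/+) and −0.19 (tau-/-). For Smad7, an inhibitor of TGF-β receptors, the values were 1.39 and −0.05. The ubiquitin ligase Siah2 had 1.19 and 0.04, and Trib1, a pseudokinase that recruits a ubiquitin ligase, had 1.46 and 0.35.

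None of the 3 small GTPases passed 1.5-fold in tau-/-. All were higher with vehicle in tau-/- than in tau+/+, as were 58.7% of all listed genes. Rasl11a, a Ras-like GTPase, measured 6.53 FPKM with vehicle and 22.7 FPKM with PTZ in tau+/+, against 10.3 and 9.07 FPKM in tau-/-. Arl5b, an Arf-like GTPase of the Golgi, went from 3.24 FPKM to 8.27 FPKM in tau+/+ and from 3.95 FPKM to 4.22 FPKM in tau-/-. Gem, which inhibits voltage-gated calcium channels, began furthest above tau+/+ among the 3, at 2.20-fold in the vehicle libraries. Its log2 response in tau-/- was −0.35 over its own vehicle and 0.79 over tau+/+ vehicle, so its sign depended on the baseline.

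A channel, a neuropeptide, a protease and a pair of C2 domain proteins had median log2 responses of 2.03 (tau+/+) and −0.45 (tau-/-). In tau-/- 2 of the 5 fell and none rose, beside 16.5% and 8.7% of all listed genes. Over tau+/+ vehicle the median log2 value of tau-/- PTZ was 0.12, with 1 gene higher and 1 lower past 1.5-fold, so the sign of the median depended on the baseline. Kcnj2, the inward rectifier potassium channel Kir2.1, stood at 2.90 FPKM (vehicle) and 10.6 FPKM (PTZ) in tau+/+ and at 1.38 FPKM and 0.882 FPKM in tau-/-. Both tau-/- libraries were below both tau+/+ libraries, and after PTZ the tau-/- level was 8.34% of that in tau+/+. Its log2 response in tau-/- was −0.64, and over tau+/+ vehicle −1.72.

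Adamts1, a secreted metalloprotease, measured 4.59 FPKM with vehicle and 18.7 FPKM with PTZ in tau+/+, against 4.09 and 4.68 FPKM in tau-/-, and again only tau+/+ PTZ stood apart. Gal, the precursor of the neuropeptide galanin, went from 0.378 FPKM to 2.03 FPKM in tau+/+ and from 0.491 FPKM to 0.611 FPKM in tau-/-. Its 5.38-fold rise in tau+/+ thus came from a level far under 1 FPKM. C2cd4b and C2cd4a lie 69.6 kb apart on chromosome 9 and encode related C2 domain proteins. C2cd4b stood at 3.37 FPKM (vehicle) and 15.6 FPKM (PTZ) in tau+/+ and at 5.05 FPKM and 3.68 FPKM in tau-/-. C2cd4a measured 0.760 FPKM with vehicle and 2.33 FPKM with PTZ in tau+/+, against 1.37 and 0.829 FPKM in tau-/-. Both were higher in tau-/- vehicle than in tau-/- PTZ, with log2 responses of −0.45 and −0.72 there, and both were close to tau+/+ vehicle after PTZ in tau-/-, at 1.09-fold each.

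Metabolic genes numbered 3, all with a rise close to the 2-fold limit. Coq10b, a coenzyme Q-binding protein of mitochondria, went from 7.17 FPKM to 16.2 FPKM in tau+/+ and from 8.55 FPKM to 7.65 FPKM in tau-/-. Khk, ketohexokinase of fructose metabolism, stood at 1.29 FPKM (vehicle) and 2.70 FPKM (PTZ) in tau+/+ and at 1.33 FPKM and 1.58 FPKM in tau-/-. For Gstm2, a glutathione S-transferase with close paralogs whose reads can be shared, the values were 1.12, 2.27, 0.718 and 1.04 FPKM in the same order. In tau-/- none of the 3 passed 1.5-fold, and their log2 responses were −0.16, 0.25 and 0.53.

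The 5 genes linked to cilia had the smallest median rise in tau+/+, 1.06 on the log2 scale, and low levels. Tekt1, a tektin of ciliary microtubules, measured 1.99 FPKM with vehicle and 4.02 FPKM with PTZ in tau+/+, against 1.27 and 1.58 FPKM in tau-/-. Ccno, needed to multiply centrioles in multiciliated cells, went from 0.888 FPKM to 1.82 FPKM in tau+/+ and from 1.16 FPKM to 0.867 FPKM in tau-/-. Ppp1r36, a phosphatase 1 regulatory subunit, went from 0.608 FPKM to 1.57 FPKM in tau+/+ and from 0.419 FPKM to 0.518 FPKM in tau-/-. The 5 genes did not move as 1 group in tau-/-, where 1 of the 5 rose, 1 fell and 3 stayed within 1.5-fold. Among all listed genes 8.7% rose, 16.5% fell and 74.8% stayed. Morn5 rose, from 0.751 FPKM to 1.24 FPKM, after 0.539 FPKM and 1.51 FPKM in tau+/+. Its tau-/- PTZ level, 82.2% of that in tau+/+, was the nearest to tau+/+ of the 50 genes.

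Wdr86, a WD repeat protein, fell furthest below tau+/+. It stood at 1.28 FPKM (vehicle) and 2.66 FPKM (PTZ) in tau+/+ and at 0.534 FPKM and 0.193 FPKM in tau-/-. Its log2 response in tau-/- was −1.47, and over tau+/+ vehicle it was −2.73. The gene overlaps Nub1 by 13479 bp, so some of its reads may belong to Nub1, since the strand setting is not stated. Transcripts of choroid plexus epithelium moved the same way. The 12 listed markers of that epithelium summed to 1581 FPKM with vehicle and 2628 FPKM with PTZ in tau+/+, and to 1162 FPKM and 40.2 FPKM in tau-/-. Most of each sum was Ttr, with 1504 and 2492 FPKM in tau+/+ and 1107 and 33.1 FPKM in tau-/-. All 12 were lowest in tau-/- PTZ, and none was at 0. None of the 50 genes was on that marker list, and the part of choroid plexus tissue in the fall of Wdr86, Kcnj2 and Tgtp1 was not tested.

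The last 11 genes are predicted, poorly characterised or members of multicopy families, with median log2 responses of 1.49 (tau+/+) and 0.05 (tau-/-). Gm13889, a predicted protein-coding gene, measured 11.3 FPKM with vehicle and 60.7 FPKM with PTZ in tau+/+, against 11.2 and 12.4 FPKM in tau-/-. With a mean of 23.9 FPKM it was the second most abundant of the 50 genes, and the 3 libraries other than tau+/+ PTZ differed by 1.11-fold at most. Gm12191, a transcribed pseudogene, went from 2.95 FPKM to 16.9 FPKM in tau+/+ and from 2.39 FPKM to 2.05 FPKM in tau-/-. It lies inside Cnot6 and shares 524 bp with it, so its counts are uncertain.

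Erdr1, a multicopy sequence at the end of the X chromosome, was the most abundant, with 31.9 FPKM with vehicle and 75.7 FPKM with PTZ in tau+/+, and 24.1 FPKM and 35.7 FPKM in tau-/-. Its 1.48-fold change in tau-/- lay just under the threshold. Xlr3b, 1 of several near-identical X-linked genes, stood at 0.817 FPKM (vehicle) and 3.22 FPKM (PTZ) in tau+/+ and at 0.171 FPKM and 1.45 FPKM in tau-/-. Its 8.47-fold rise in tau-/- was the largest of the 50 genes, but it began from the lowest tau-/- vehicle level of them all, and over tau+/+ vehicle the rise was 1.78-fold. Gm6194, a transcribed pseudogene, repeated this pattern at 1.12, 2.30, 0.455 and 1.32 FPKM in the same order. Its log2 response was 1.54 in tau-/-, and only 0.24 over tau+/+ vehicle.

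E030010A14Rik, now named Tmem252, showed the reverse. It measured 0.417 FPKM with vehicle and 1.65 FPKM with PTZ in tau+/+, against 1.30 and 0.838 FPKM in tau-/-, and it shares 1401 bp with Pgm5. It began 3.12-fold higher in tau-/- vehicle, the largest such gap of the 50 genes, so tau-/- PTZ was a fall of −0.64 over its own vehicle and a rise of 1.01 over tau+/+ vehicle on the log2 scale. The other genes of this kind were 1810011O10Rik, 9430038I01Rik, 1600002K03Rik, Gm11744 and the long noncoding RNA LOC100504703. Their log2 responses ran from 1.13 to 1.71 in tau+/+ and from −0.40 to 0.57 in tau-/-.

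**Figure D3:**
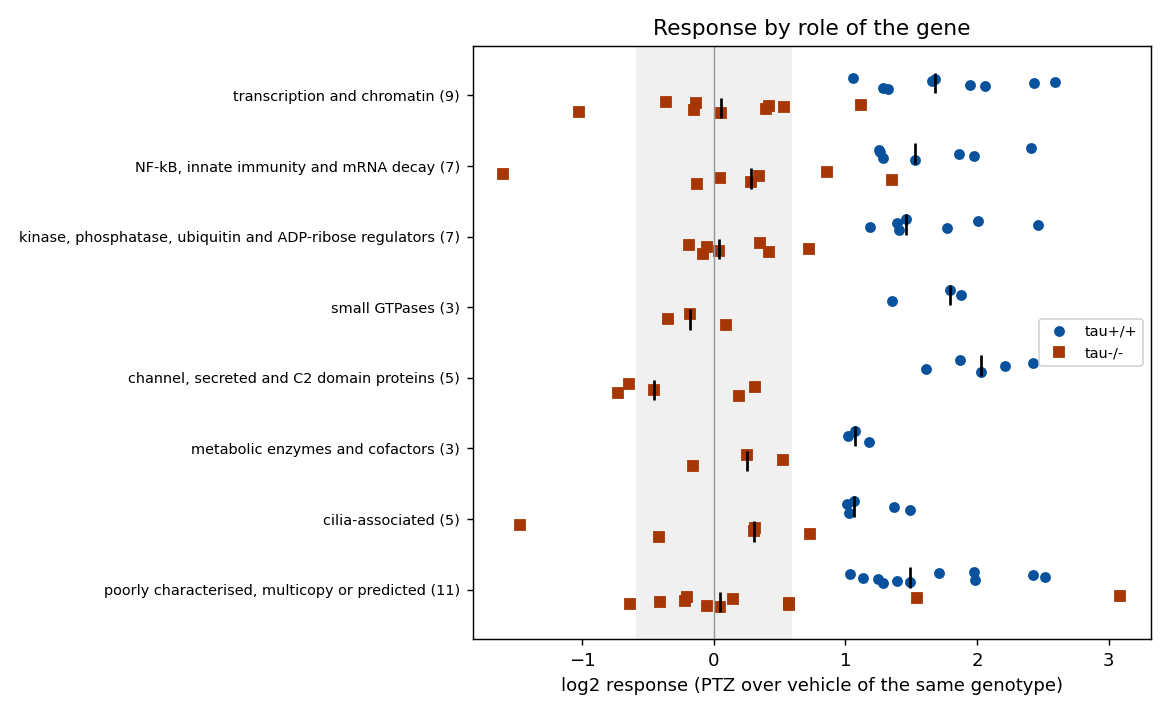
Log2 response to PTZ over vehicle of the same genotype, 1 point per gene, for the 8 groups of genes by role (number of genes in parentheses). Circles are tau+/+, squares tau-/-, black ticks the group medians and the grey band 1.5-fold. Medians run from 1.06 to 2.03 in tau+/+ and from −0.45 to 0.31 in tau-/-, where the spread is widest among the multicopy and predicted genes.

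The vehicle libraries already differed between genotypes. Of the 50 genes, 35 (70%) were higher and 15 lower in tau-/- vehicle than in tau+/+ vehicle, beside 135 of all 230 listed genes (58.7%) that were higher, with a median log2 difference of 0.25, against 0.11 over all listed genes. Past 1.5-fold, 12 were higher, against 13.9% of all listed, and 7 were lower, against 10%. The tau+/+ vehicle library had to be low for a gene to be chosen, so this direction is set in part by the choice. The highest were E030010A14Rik, Gem, Cebpb and 1810011O10Rik, with 3.12-fold, 2.20-fold, 2.11-fold and 2.02-fold, and the lowest were Xlr3b, Gm6194, Wdr86 and Kcnj2, with 0.210-fold, 0.405-fold, 0.419-fold and 0.476-fold.

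Because of these differences the count of genes that rose in tau-/- depended on the vehicle library it was taken from. Over tau+/+ vehicle, 14 genes were higher in tau-/- PTZ past 1.5-fold, against 14.8% of all listed genes, and 3 were lower, against 13.9%. The median log2 value was 0.34, against 0.03 over all listed. Past the threshold over both vehicle libraries were 5 genes that rose, Sik1, Zfp36, Klf4, Morn5 and Xlr3b, and 3 that fell, Kcnj2, Tgtp1 and Wdr86. Nfkbid and Gm6194 rose over tau-/- vehicle only. Another 9 rose over tau+/+ vehicle only, among them Gm129 at 2.30-fold, Csrnp1 at 2.11-fold and E030010A14Rik at 2.01-fold, and Cebpb, C2cd4a and E030010A14Rik fell over tau-/- vehicle only. Lowest of the 4 libraries was tau+/+ vehicle for 32 genes, tau-/- vehicle for 10 and tau-/- PTZ for 8, counts that the choice of genes by a low tau+/+ vehicle level sets in part.

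**Figure D4:**
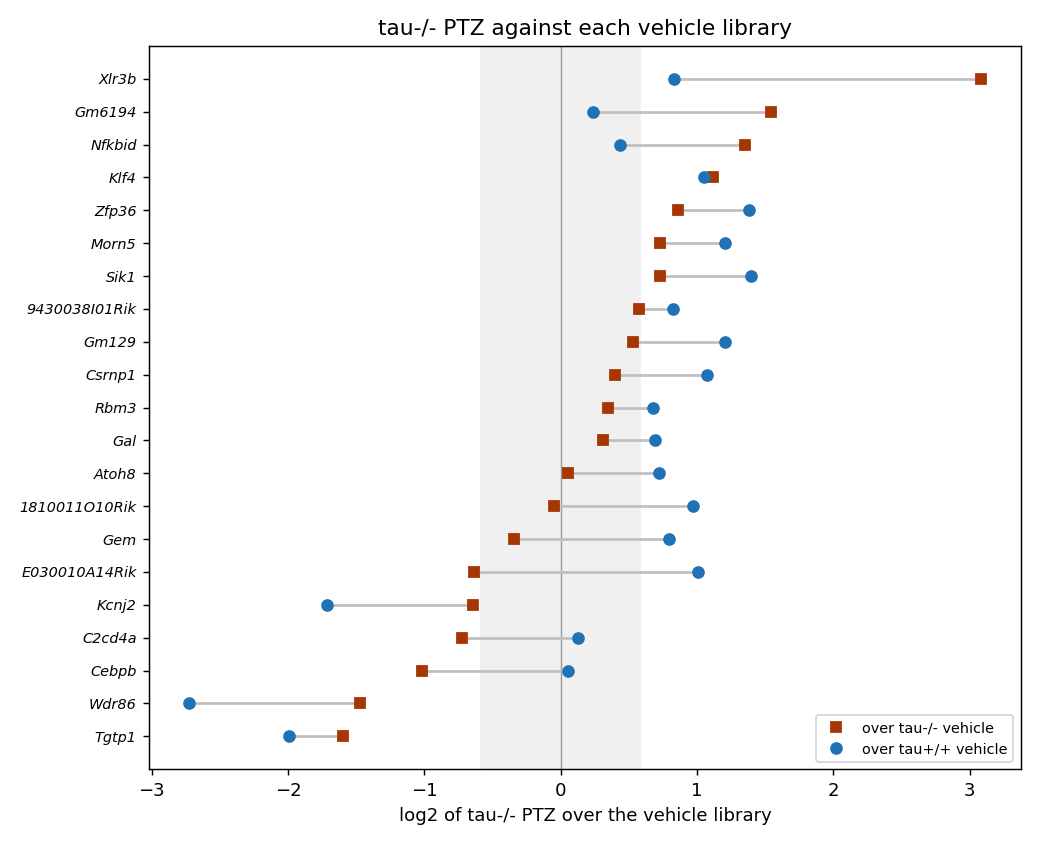
Log2 of tau-/- PTZ over tau-/- vehicle (squares) and over tau+/+ vehicle (circles) for the 21 genes past 1.5-fold by either measure, with the grey band at 1.5-fold. Only E030010A14Rik leaves the band on opposite sides, at −0.64 and 1.01, and Klf4 gives nearly the same value both ways.

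Low levels went with wide tau-/- responses. Among the 19 genes with a mean of at least 5 FPKM over the libraries, 2 rose in tau-/-, Sik1 and Zfp36, 17 stayed within 1.5-fold and none fell, and the log2 responses ran from −0.45 to 0.86. Among the 23 genes with a mean under 2 FPKM, 4 rose and 4 fell, and the range was −1.60 to 3.08. The part of counting error in this spread was not tested. At the threshold of the choice, Ccno, Gstm2 and Tekt1 were the last genes inside it, with rises of 2.04-fold, 2.03-fold and 2.02-fold. Just outside lay Wfikkn2, 5430416N02Rik and Ccnl1, with 1.99-fold, 1.96-fold and 1.95-fold. In tau+/+ these went from 0.743 to 1.48 FPKM, from 4.86 to 9.50 FPKM and from 7.31 to 14.3 FPKM. In tau-/-, Wfikkn2 went from 1.22 FPKM to 0.0959 FPKM, 5430416N02Rik from 6.54 FPKM to 7.23 FPKM and Ccnl1 from 9.45 FPKM to 8.47 FPKM.

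Several pathway lists cut across these roles. They were drawn up with earlier results of these data known, so how many of their genes are listed is a description and not a result. The counts below stand beside 8.7% of all 230 listed genes that rose in tau-/-, 74.8% that stayed within 1.5-fold and 16.5% that fell. Of 25 names on a list of known targets of CREB and its coactivators, 18 are among the 230 listed genes. On that list are 7 of the 50, namely Sik1, Gal, Gem, Ppp1r15a, Nfil3, Cebpb and Coq10b. Over the 18, the median log2 responses were 1.73 (tau+/+) and 0.01 (tau-/-), and in tau-/- 4 rose, 13 stayed within 1.5-fold and 1 fell. Sik1 was the only one of the 7 that rose and Cebpb the one that fell. Of 30 NF-κB and innate early response genes, 10 are listed and 7 are among the 50, and of the 10, 3 rose, 4 stayed and 3 fell in tau-/-. The circadian regulator list of 16 names, with Gm129 under both of its names, had 5 genes listed, and of these Sik1 rose in tau-/-. Gm129 and Nfil3 had log2 responses there of 0.53 and −0.14, and Per1 and Bhlhe40, which are outside the 50, had −0.01 and −0.24. The Kruppel-like factor list of 14 genes had 3 listed, with Klf4 the only one that rose in tau-/-. In tau+/+ Klf4 and Klf2 rose, while Klf5 fell from 4.13 FPKM to 2.23 FPKM. The Smad and TGF-β list of 14 had 2 listed, Smad7 and Id1, both within 1.5-fold in tau-/-. The heat shock list of 15 had 3 listed, Atf3, Ppp1r15a and Dnajb1, of which Atf3 rose in tau-/-.

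Few markers of other cell types are among the 50 genes, and these marker lists too were drawn up with earlier results known. Of 28 ependymal and ciliated cell markers, 4 are listed, and all 4, Morn5, Ppp1r36, Ccno and Tekt1, belong to the 50. Their summed level was 4.03 FPKM with vehicle and 8.92 FPKM with PTZ in tau+/+, and 3.60 FPKM and 4.21 FPKM in tau-/-. Of 16 microglia and myeloid markers, Cd14 and Lgals3 are listed, with sums of 1.35, 3.61, 1.69 and 1.76 FPKM in the same order. Listed markers outside the 50 were 3 of 17 names for meninges, with sums of 6.56, 11.1, 6.26 and 4.61 FPKM, and 2 of 15 names for endothelium, with sums of 6.84, 17.6, 6.91 and 10.7 FPKM. None of 10 red blood cell markers is listed. The part of cell composition in any response was not tested.

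Beside the 35 early genes set aside that also rose at least 2-fold, the 50 genes had lower levels and smaller rises. In tau+/+ vehicle the median was 2.06 FPKM for the 50 and 10.8 FPKM for the 35, and the median log2 response in tau+/+ was 1.51 against 2.11. In tau-/- the medians were close, at 0.05 and 0.10, and 9 of the 35 rose, 24 stayed within 1.5-fold and 2 fell. Among all listed genes 8.7% rose, 74.8% stayed and 16.5% fell. In the vehicle libraries, 30 of the 35 early genes were higher in tau-/-, against 58.7% of all listed genes, with a median log2 difference of 0.44. The 82 listed genes that rose by less than 2-fold in tau+/+ gave a tau-/- median of −0.19 on the log2 scale, with 2 that rose and 20 that fell. No test of these differences was made, since the sets were defined on these libraries.

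Promoters were described over all 50 genes by short motifs that the choice did not use. In RefSeq, 35 of the 50 genes had a promoter of 250 bases before to 50 after the start, 41 promoters in all, and 3 genes had more than 1. Both strands were searched. The CRE core TGACG was present in 23 of the 41 (56.1%), against 56% of 50 promoters of the early genes, 33.3% of 87 promoters of the genes rising less than 2-fold and 23.6% of 21263 promoters of protein-coding genes. Each full CRE counts among these, since TGACGTCA contains TGACG on both strands, and the full CRE was present in 3 (7.32%), against 12% of the early gene promoters and 2.23% of protein-coding promoters. CACGTG was present in 9 (22%), against 18% of the early gene promoters and 7.84% of protein-coding ones.

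These promoters were also richer in CpG dinucleotides, which both motifs contain. The median ratio of observed to expected CpG was 0.683 for the 41 and 0.567 for protein-coding genes, and the median GC content was 63% and 56.3%. Among promoters with a ratio of at least 0.6, TGACG was present in 17 of 25 (68%) for the 50 genes against 35.5% of 10137 protein-coding promoters, and CACGTG in 8 of 25 (32%) against 11.4%. Other motifs lay nearer to the protein-coding share. GCGNGGGCG, the Egr site, was present in 4 (9.76%) against 7.52%, GAANNTTC of heat shock factors in 3 (7.32%) against 7.21%, TATAAA in 4 (9.76%) against 12.6% and the AP-1 letters in 1 (2.44%) against 6.99%. For the NF-κB pattern, GGG and CC with any 5 bases between, the shares were 58.5% and 57%, and for the CArG box 2.44% and 1.52%. A match describes these letters only and is not a site of binding.

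**Figure D5:**
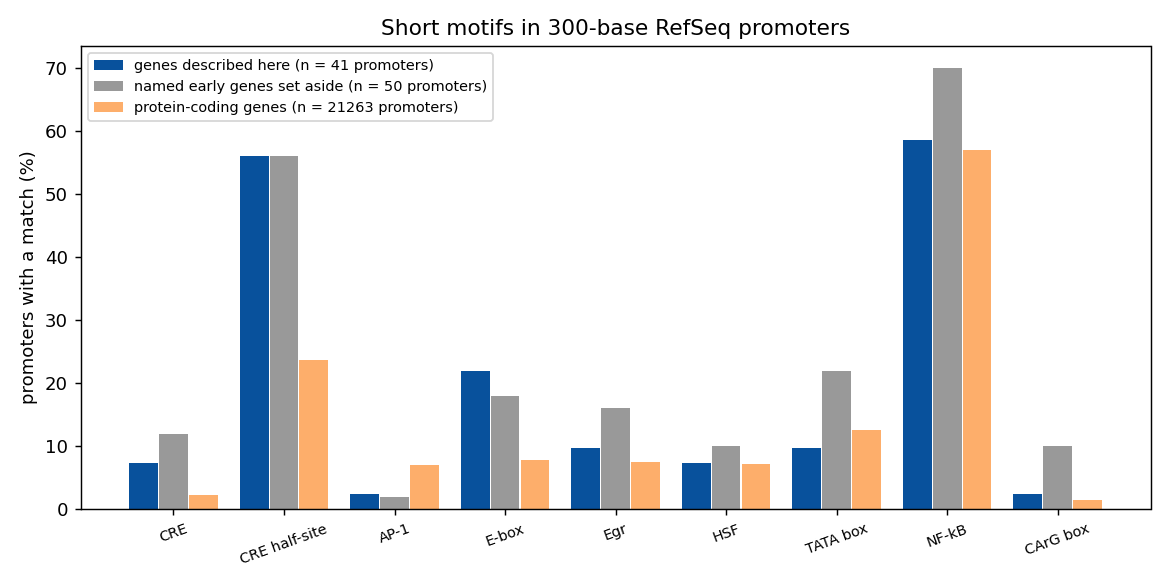
Share of RefSeq promoters (percent) with at least 1 match to each motif, for 41 promoters of the 50 genes, 50 of the early genes set aside and 21263 of protein-coding genes. The TGACG core (labelled CRE half-site) and the E-box stand highest above the protein-coding bars, at 56.1% against 23.6% and 22% against 7.84%, and the NF-κB bars are level for the 50 genes and protein-coding genes.

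In transcripts, the AU-rich letters TATTTAT were searched in the 3′ untranslated region of the longest coding transcript of each gene. A value was had for 46 of the 50 genes, of which 16 (34.8%) had a match, against 57.1% of the 35 early genes and 25.5% of 20641 coding genes. The share was 33.75% for the genes rising less than 2-fold and 38.5% for the listed genes that fell in tau+/+, so it did not set the 50 genes apart from these. Per kilobase of 3′ untranslated region there were 0.574 matches for the 50 genes, 0.764 for the early genes and 0.313 for all coding genes. The genes rising less than 2-fold had 0.462 and those that fell in tau+/+ had 0.303. Ppp1r15a and Arl5b had 4 matches each, and Zfp36, whose protein binds such letters, Adamts1 and Gem had 3 each. The 50 genes had a median of 5 exons against 7 for all coding genes. Their median transcript length was 1972.5 bases against 2652.

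All 50 genes were found in RefSeq on GRCm38.p6, 44 by symbol, 5 by an older symbol and 1 by gene ID. Of these, 46 are protein-coding, 3 are transcribed pseudogenes and 1 is a long noncoding RNA. On the genome the 46 protein-coding genes spanned a median of 10180 bp, against 17146 bp over 21900 protein-coding genes, and 31 of the 46 were shorter than that. Apart from C2cd4b and C2cd4a, the nearest pair was Cenpa and Khk on chromosome 5, 247 kb apart. Cenpa lies from 30666877 to 30674837 and Khk from 30921436 to 30931248. This pair differed in size of rise, 4.17-fold and 2.10-fold in tau+/+, and had log2 responses of −0.15 and 0.25 in tau-/-. Other genes that overlap a protein-coding neighbor, and whose counts may hold reads of it, were Ppp1r15a with Tulp2, LOC100504703 with Tspan31 and Gm11744 with Cygb.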

How the data were processed

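The authors sequenced brain RNA of tau+/+ and tau-/- mice as 4 libraries, 1 for each group. TopHat and Bowtie were used to align reads to GRCm38/mm10. The deposited FPKM values came from Cuffdiff. The submitters' processing notes name TopHat2 2.03, Bowtie2 2.0.0.6, Cuffdiff 2.01 and CASAVA 1.7, and the annotation is not given in the sources used here. The deposited columns of log2 fold changes and p-values are the authors' own comparisons and were not used. The values cover 230 genes the authors selected, and 43 genes named by the rule were set aside. The methods state a minimum number of aligned read pairs that all libraries passed, but the total of each library is not given in the sources used here, and no counting interval was computed.

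Ratios and log2 ratios of FPKM were computed without a pseudocount and counted past 1.5-fold. With 1 library per group no test was made. The alternatives were the tau+/+ vehicle baseline, pseudocounts of 0.1 and 1 FPKM, a mean of at least 1 or 5 FPKM, centring on the other listed genes, a rise of at least 3-fold and a fold of 2. The members and gene lists were chosen with earlier results of these data known. Values in all 4 libraries were given for the 10 largest rises, the genes past 1.5-fold in tau-/-, the genes nearest the 2-fold limit and the 2 most abundant genes of each role. Positions and promoters came from RefSeq GRCm38.p6, and transcripts from GENCODE M21 (basic set). The code passed 7 of 7 checks on simulated data and ran under Python 3.11.15, with the packages numpy (2.4.6), pandas (2.3.3) and matplotlib (3.10.9).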

Additional observations from a re-analysis of the deposited data

Results flagged for a closer look

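Of the 50 genes, 6 (12%) fell past 1.5-fold in tau-/- after a rise in tau+/+, against 16.5% of all listed genes that fell in tau-/-. That share has another base, since all listed genes include 55 that fell in tau+/+, of which 7 fell in tau-/- too. For the 6 of the 50 genes the libraries of the genotypes moved in opposite directions, and with 1 library per group the difference was not tested. The log2 responses in tau-/- were −0.637 for E030010A14Rik, −0.644 for Kcnj2, −0.724 for C2cd4a, −1.02 for Cebpb, −1.60 for Tgtp1 and −1.47 for Wdr86. The tau-/- PTZ levels of Kcnj2, Tgtp1 and Wdr86 were also below tau+/+ vehicle past 1.5-fold, while over tau+/+ vehicle Cebpb, C2cd4a and E030010A14Rik had log2 values of 0.06, 0.12 and 1.01.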

How the results depend on the processing

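A log2 value or a share counts as moved when it shifts by more than 0.1, and a count, as a share of the genes used, when it changes by more than 1.5 times. A log2 value or a share counts as reversed only if its main value was past the 1.5-fold limit and its sign then changed. A count is never called reversed. Of the summaries only the PTZ difference was past that limit, so the others could not be called reversed. By these limits 39 of 54 summaries over the 50 genes were not moved by the alternatives, 15 were, and 0 reversed. Among the 50 single genes, a pseudocount of 0.1 FPKM moved 5 and one of 1 FPKM moved 23. The tau+/+ vehicle baseline moved 42 and reversed 3 of the genes past 1.5-fold in tau-/-. Further genes within 1.5-fold changed sign with it and are not counted as reversed. Examples are Gem (−0.35 to 0.79), C2cd4b (−0.45 to 0.13) and Tekt1 (0.31 to −0.33). Centring subtracts the same value from each gene, so it moved all 50 by construction. Of 47 medians of the role groups, 24 moved. Centring moved all 8, again by construction, and the tau+/+ vehicle baseline moved all 8 too. With that baseline the sign changed for the small GTPases (−0.18 to 0.47), the channel and secreted group (−0.45 to 0.12) and the cilia group (0.31 to −0.23). With tau+/+ vehicle as the baseline, the median log2 response in tau-/- was 0.34, 14 genes rose and 3 fell, the median share of the tau+/+ response was 0.225, and 3 genes reversed, C2cd4a to 0.12, Cebpb to 0.0556 and E030010A14Rik to 1.01. With a pseudocount of 1 FPKM, 1 gene fell and the PTZ difference was −0.91. For the 19 genes with a mean of at least 5 FPKM, 0 fell and the PTZ difference was −1.29. Centred on 168 other listed genes, whose medians of −0.10 for the tau-/- response, 0.08 for the vehicle difference and −0.56 for the PTZ difference were subtracted, the median tau-/- response was 0.154, 11 genes rose and the PTZ difference was −0.61. For the 24 genes with a rise of at least 3-fold, the vehicle difference was 0.449 and the PTZ difference −1.41. At a fold of 2, 4 genes rose and 3 fell. The cause of these moves was not tested. No paired analysis was possible because each group has 1 library. The total depth of each library was not used, and 14 of the 50 genes were under 1 FPKM in tau+/+ vehicle.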
